A study of Mus musculus with 6 samples.

Results

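The genes described here are 42 genes of the endoplasmic reticulum (ER) folding machinery and of the unfolded protein response (UPR), measured by RNA-seq in the anterior prostate (AP) of mice. They are the rows of the deposited tables whose symbol is one of 42 listed names, out of 55076 rows per mouse. The list of names was drawn up with earlier results of these data known, so counts set against all rows describe these genes and are not independent support. Total RNA of the whole AP, with the secretions cleaned away, was sequenced from 3 OEx and 3 Ctrl male mice at 20 weeks of age. OEx mice are Pbsn-Cre Rosa26 N1ICD/+, so that the Notch1 intracellular domain (N1ICD) is switched on in the cells in which the probasin promoter drives Cre, which is the prostate epithelium. Ctrl mice are called wild type in the sample labels, and the paper describes them as Rosa26 N1ICD/+ without Cre, so that the silent transgene is shared by both groups. No gene of the list was manipulated, and the comparison asks how much of the folding and stress machinery differed between APs with and without overactive Notch1.

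The ER is where secreted and membrane proteins fold, helped by Hsp70 and Hsp90 type chaperones, by the lectin chaperones that read sugar chains, and by protein disulfide isomerases. Proteins that fail to fold are drawn back to the cytosol and degraded, a route called ER-associated degradation (ERAD). The sensors in the ER membrane, namely the kinases IRE1 (Ern1) and PERK (Eif2ak3) and the membrane-bound factor ATF6, watch the load of unfolded protein. IRE1 splices Xbp1 mRNA, ATF6 is cut to release a transcription factor, and PERK slows translation and favours that of ATF4, which in turn raises CHOP (Ddit3). Their target genes include the chaperones and ERAD genes themselves, and glands that secrete much protein keep these genes at high levels.

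Many of these genes carry an ER stress response element (ERSE) near their start, a CCAAT box followed by a gap and CCACG, read by NF-Y together with ATF6 or XBP1. RefSeq promoter windows of GRCm38.p6, from 250 bases before to 50 after the start, were found for 35 of the 42 genes. The letters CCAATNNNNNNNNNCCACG were present on either strand in 10 of these 35 (28.6%), against 37 of 27025 genes with a window (0.137%). The shorter ERSE-II, which reads ATTGG, any base and CCACG, was present in 2 of the 35, Dnajb11 and Herpud1, against 12 of all windows (0.0444%), and does not overlap the ERSE letters. The stretches below show the element in the gene with the largest difference, in main chaperones of each kind and in Herpud1, with the motif in capitals, 5 bases on each side in lower case, and the strand of the printed letters.
Derl3, chr10:75893237-75893265, minus strand: gctagCCAATGGGGAAGTCCCACGgtaga
Creld2, chr15:88819515-88819543, minus strand: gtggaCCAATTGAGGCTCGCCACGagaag
Hspa5, chr2:34772020-34772048, plus strand: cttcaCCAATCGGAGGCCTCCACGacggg
Canx, chr11:50325795-50325823, minus strand: attgaCCAATCACCACGCTCCACGaagaa
Pdia6, chr12:17266486-17266514, plus strand: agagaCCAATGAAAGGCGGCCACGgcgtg
Herpud1 (ERSE-II), chr8:94386372-94386392, plus strand: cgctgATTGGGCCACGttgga
Genes with the ERSE letters differed between groups by unlike amounts. Among the 10 genes with an ERSE match the log2 fold changes ran from -4.45 for Derl3 to 0.40 for Hsp90b1, which holds 2 matches. Their median was -0.97, with 4 of 10 called lower by the criteria given below. The median of the 25 genes with a window and no ERSE match was -1.08, with 13 called lower. These 25 include Dnajb11 and Herpud1, which hold an ERSE-II. A match is a description of letters and was not tested as a binding site. Whether a match goes with the size of a difference was not tested either. The ATF4 element TGATGNAA was present in 3 of the 35 windows (8.57%), those of Txndc5, Trib3 and Herpud1, against 4.51% of all windows.

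Levels are given as FPKM, fragments per kilobase of gene, which can be compared between genes. The authors' scaling between mice is not the number of reads, since the divisor behind the values, over the recovered reads, lay between 1.22 and 1.34 for OEx libraries and between 0.726 and 0.815 for Ctrl libraries. Depth, as reads recovered from the values, ran from 14771904 to 17009327 for OEx and from 17236467 to 18655679 for Ctrl libraries, and 3 reads correspond to at most 0.203 CPM. Notch1, the label check, stood at 41.9, 47.6 and 78.9 FPKM in OEx mice and 5.18, 5.55 and 3.34 FPKM in Ctrl mice. Mice 1 and 2 of each group lay nearer one another than mouse 3, with a chi-square per gene of 3.97 and 3.09 against 62.2 to 108. They differed by more than counting noise, which a second library of 1 animal could also show, and were kept as separate mice because the labels list them so. With the 2 averaged, so that each group counts 2, 19 ER genes were called lower. Ctrl mouse 3 held 1.31% of its reads on 8 seminal vesicle genes, against at most 3.25e-04% in the other mice, and values without it are given beside the ER genes whose call it decides. Nothing in the labels says how the mice relate to each other, so p-values and SEs measure the spread between these 6 libraries. In whole tissue, fewer cells of a type and less RNA per cell cannot be told apart.

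With the deposited scaling, expression of the ER machinery was lower in OEx mice across most of its branches, and no listed gene was called higher. With library totals in its place, 7 of the genes were called lower and 2 higher (Hsp90b1 and Ern1), as given further on, and the counts by role that follow are those of the deposited scaling. Of 41 genes that reached a mean of 1 FPKM and were tested, 22 were lower in OEx mice by more than 2-fold with a Benjamini-Hochberg FDR under 0.05 (limma on log2(FPKM + 1)), where 15.7% of all 12833 tested rows were called lower and 12.9% higher. Without the fold criterion, 32 of 41 passed the FDR, all of them lower, against 36.5% of all rows that were lower and 30.7% that were higher by the same rule. In the higher direction 0 genes were called by limma or by limma-voom on recovered reads, and 0 had an unadjusted p under 0.05 by either. The median log2 fold change of the 41 genes was -1.08, and that of all tested rows was -0.08. A log2 fold change below 0 was found for 37 of the 41. Groups did not overlap for 31 of 41 genes, a share close to the 72.4% of all rows, so separation of the groups by itself is not particular to these genes.

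**Figure D1:**
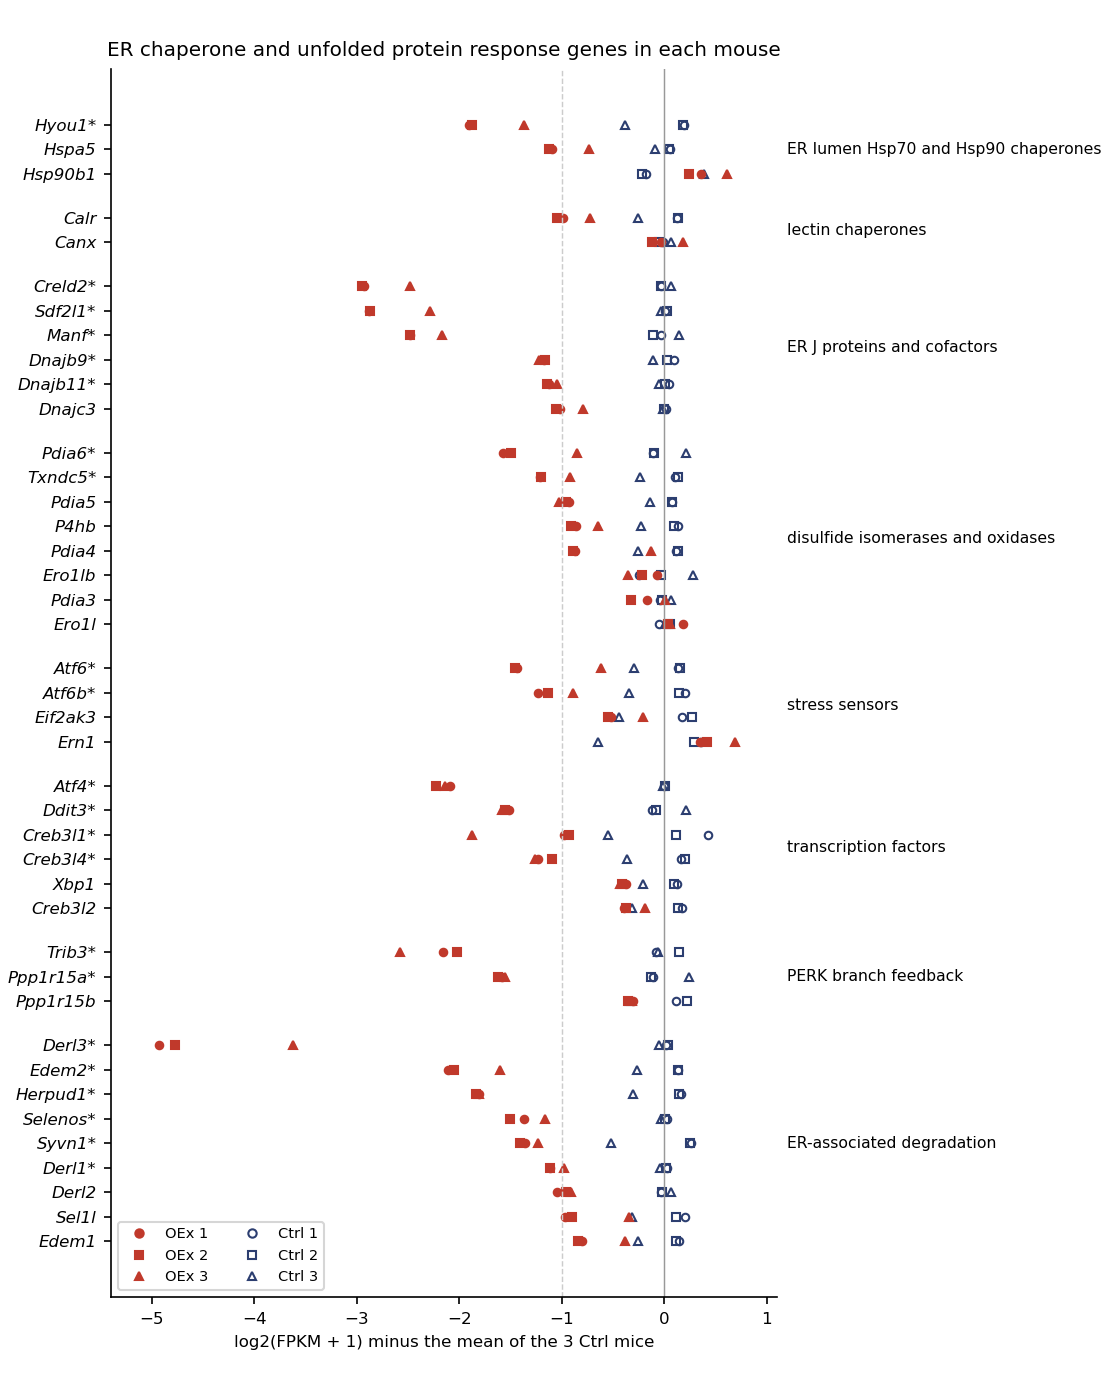
Each row is 1 gene, grouped by role, and each point 1 mouse, plotted as log2(FPKM + 1) minus the mean of the 3 Ctrl mice (OEx filled, Ctrl open, marker shape for the mouse number, dashed line at a 2-fold lower level, asterisk for the 22 called genes). OEx points lie to the left of Ctrl points for most genes, with Derl3 farthest away, and lie on or to the right of them for Canx, Hsp90b1, Ero1l and Ern1.

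Abundant rows of the whole data set were lower in OEx mice more often than rare ones, and most of the ER genes are abundant. Among the 2552 tested rows that averaged 20 FPKM or more over the 6 mice, 38.1% were called lower and the median log2 fold change was -0.77. In the same range 17 of 29 ER genes were called lower, and their median was -1.10. Below 20 FPKM the share was 10.2% of 10281 rows, and 5 of 12 ER genes were called lower. This split was chosen after the values were seen. The summed level of all 42 genes was 2548, 2473 and 3151 FPKM in OEx mice and 6122, 6090 and 5584 FPKM in Ctrl mice.

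**Figure D2:**
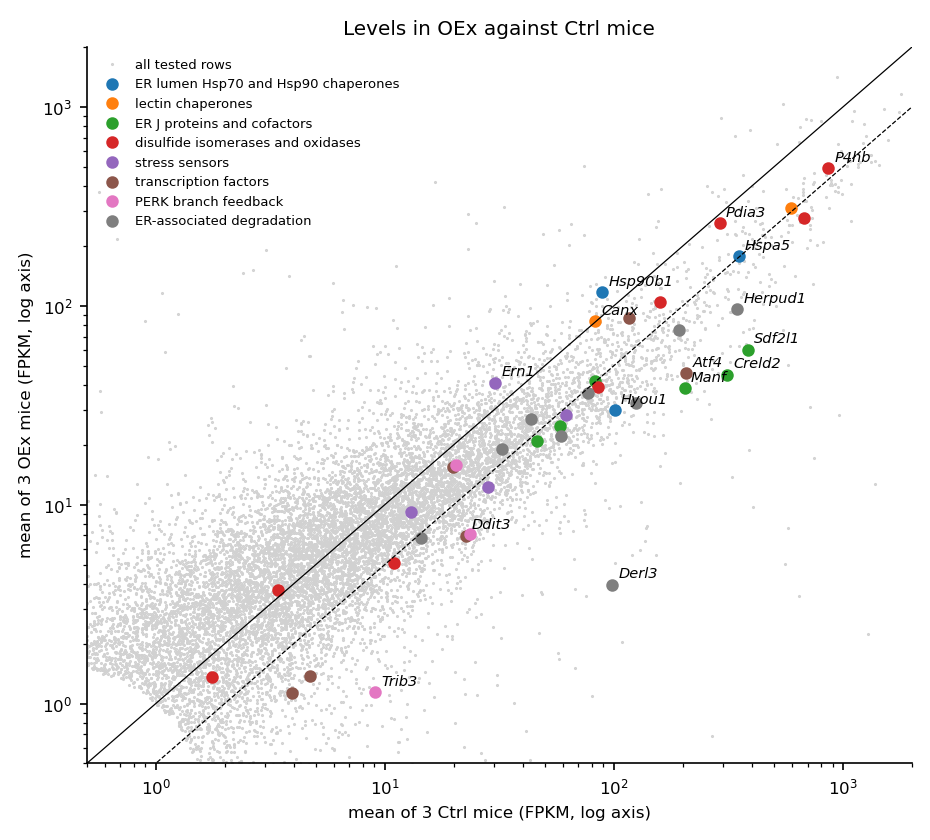
Mean level of the 3 OEx mice against that of the 3 Ctrl mice, in FPKM on log axes, with all tested rows in grey and the 41 tested ER and UPR genes coloured by role (solid line, equal levels; dashed line, 2-fold lower in OEx; rows outside the axes are not drawn). The grey cloud bends below the solid line at high levels, Derl3 lies far below the dashed line with 98.2 against 3.96 FPKM, and Hsp90b1 and Ern1 lie above the solid line.

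The small soluble helpers of BiP made up the role with the lowest median. Of 6 J proteins and cofactors, 5 were called lower and all 6 passed the FDR, with a median log2 fold change of -1.78. Creld2, an ER protein that is induced by ER stress, stood at 40.3, 39.7 and 55.3 FPKM in OEx mice and 306, 306 and 326 FPKM in Ctrl mice. Sdf2l1, which keeps clients soluble together with the J protein ERdj3, stood at 51.2, 51.5 and 77.7 FPKM against 384, 391 and 374 FPKM. Manf, which binds BiP and slows its nucleotide exchange, stood at 35.5, 35.5 and 44.4 FPKM against 198, 188 and 224 FPKM. For these 3 genes every OEx mouse was several-fold below every Ctrl mouse, and OEx mouse 3 was the highest of its group. The mean levels were 6.94-fold lower for Creld2 (log2 fold change -2.78, SE 0.14, FDR 2.90e-05), 6.37-fold for Sdf2l1 (-2.68, SE 0.17, FDR 4.64e-05) and 5.29-fold for Manf (-2.38, SE 0.12, FDR 2.94e-05). In GRCm38, Creld2 lies on chromosome 15 from 88819646 to 88826683, Sdf2l1 on chromosome 16 from 17130138 to 17132383 and Manf on chromosome 9 from 106838312 to 106891979, where 166 bases of its exons are shared with a neighbouring gene.

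The J proteins proper, which hand clients to BiP and trigger its ATPase, differed less. Dnajb9 (ERdj4), a J protein that also represses IRE1, was at 25.3, 25.4 and 24.3 FPKM in OEx mice and 62.1, 59.1 and 53.7 FPKM in Ctrl mice (2.34-fold lower, FDR 6.34e-05). Dnajb11 (ERdj3) was at 20.7, 20.4 and 21.9 FPKM against 47.7, 46.7 and 44.6 FPKM (2.21-fold lower, FDR 5.48e-05). Both groups were tight and far apart for these genes. Dnajc3 (p58IPK), a J protein that can also inhibit PERK, missed the fold criterion with a log2 fold change of -0.96 (FDR 1.94e-04).

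The main chaperones of the lumen did not move together. Hspa5 (BiP), the central ER Hsp70 that also holds the sensors inactive, stood at 164, 160 and 210 FPKM in OEx mice and 363, 361 and 328 FPKM in Ctrl mice. This was 1.97-fold lower, just short of the fold criterion (log2 fold change -0.99, SE 0.13, FDR 6.14e-04), and without OEx mouse 3 or without Ctrl mouse 3 it was called lower (-1.11 and -1.03). Hyou1 (Grp170), the large Hsp70 that exchanges nucleotide for BiP, stood at 25.7, 26.2 and 37.7 FPKM against 114, 113 and 75.7 FPKM and was 3.37-fold lower (-1.72, SE 0.21, FDR 5.12e-04). Hsp90b1 (Grp94), the ER Hsp90, went the other way, at 112, 103 and 134 FPKM against 77.3, 75.1 and 115 FPKM. Ctrl mouse 3 lay within the OEx range for Hsp90b1, and the difference missed the threshold (0.40, 95% CI -0.05 to 0.86, FDR 0.0993). Without Ctrl mouse 3 the value was 0.60 (FDR 0.00752). Exons of Hsp90b1 share up to 415 bases with other transcripts of the locus on either strand, and whether reads were counted by strand is not given in the sources used here.

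The lectin pair split in the same way. Calr (calreticulin), the soluble lectin, was at 296, 283 and 355 FPKM in OEx mice and 639, 643 and 490 FPKM in Ctrl mice, with no overlap (log2 fold change -0.92, FDR 0.00174), and it crossed the fold criterion without OEx mouse 3 (-1.02) or Ctrl mouse 3 (-1.05). The annotation lists 1 pseudogene of Calr. Canx (calnexin), its membrane-bound relative, was at 81.3, 76.2 and 94.5 FPKM against 82.4, 79.8 and 86.7 FPKM. The groups overlapped for Canx, with a log2 fold change of 0.01 and a 95% CI from -0.23 to 0.26 (FDR 0.915). A 2-fold difference lies outside this interval, which holds for the deposited scaling only. With library totals the log2 fold change of Canx was 0.91 (FDR 1.87e-04). Under the deposited scaling the sign of Canx changed without OEx mouse 3 (-0.07) and without Ctrl mouse 2 (-0.01).

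Of 8 disulfide isomerases and oxidases, which make and reshuffle disulfide bonds, 2 were called lower and 5 passed the FDR, with a median log2 fold change of -0.72. The 25% called lower lies between the 15.7% of all tested rows and the 38.1% of rows at 20 FPKM or more. P4hb (PDI), the most abundant gene of the whole list, was at 470, 455 and 546 FPKM in OEx mice and 937, 913 and 732 FPKM in Ctrl mice, 1.76-fold lower (FDR 0.00203). Pdia6 stood at 225, 237 and 370 FPKM against 620, 628 and 776 FPKM, 2.43-fold lower (log2 fold change -1.31, SE 0.21, FDR 0.00163), with mouse 3 the highest in both groups. Txndc5 (ERp46) stood at 36.1, 36.2 and 44.2 FPKM against 91.5, 93.0 and 71.8 FPKM, 2.20-fold lower (FDR 4.95e-04), and 311 bases of its exons are shared with a neighbour on the opposite strand. No overlap was seen for these 3 genes. Pdia5 and Pdia4 fell by 0.97 and 0.63 on the log2 scale (FDR 1.87e-04 and 0.0467), the latter with overlapping groups, and Pdia5 was called lower without Ctrl mouse 3 (-1.04). The mean of Pdia5 was 2.15-fold lower. It was also called lower with 0.1 or 0.5 FPKM added in place of 1 and by limma-voom, and not with library totals. Pdia3 (ERp57), the isomerase that works with calnexin and calreticulin, was at 258, 230 and 291 FPKM against 280, 285 and 303 FPKM (-0.16, 95% CI -0.43 to 0.10, FDR 0.229). The oxidases that pass electrons on from PDI were at low levels, with log2 fold changes of 0.09 for Ero1l (95% CI -0.13 to 0.31, FDR 0.413) and -0.22 for Ero1lb (FDR 0.289).

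ERAD was the one larger role beside the cofactors in which every gene passed the FDR, all 9 of them lower and without overlap, and 6 were called. Over all tested rows, groups did not overlap for 72.4%, 36.5% passed the FDR as lower and 15.7% were called lower. Derl3, the derlin that is typical of secretory cells and a channel component for the export of misfolded protein, showed the largest difference of the list, at 2.24, 2.61 and 7.03 FPKM in OEx mice and 99.1, 101 and 94.8 FPKM in Ctrl mice. All 3 OEx mice were low, with mouse 3 above the other two, and the Ctrl mice lay close together. The mean was 24.8-fold lower (log2 fold change -4.45, SE 0.33, FDR 7.44e-05). Without OEx mouse 3 the log2 fold change was -4.86. Derl3 lies on chromosome 10 from 75893413 to 75895941, with no overlapping exon. The other derlins differed far less, with Derl1 at 35.1, 35.2 and 38.7 FPKM against 79.1, 78.1 and 75.0 FPKM (2.13-fold lower, FDR 7.15e-05). Derl2, which shares 231 exon bases with Mis12 on the opposite strand, had a log2 fold change of -0.97 (FDR 1.11e-04). The mean of Derl2 was 2.10-fold lower. It was called lower with 0.1 or 0.5 FPKM added in place of 1 and by limma-voom, and not with library totals.

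Of the remaining ERAD genes, Herpud1, a membrane scaffold of the degradation complex, was the most abundant in Ctrl mice, at 381, 377 and 277 FPKM, and stood at 96.8, 94.7 and 96.9 FPKM in OEx mice. The level was even in the OEx mice and 3.59-fold lower (log2 fold change -1.82, FDR 8.16e-05). Edem2, which trims mannose from clients marked for disposal, was at 27.8, 29.0 and 40.2 FPKM against 136, 136 and 103 FPKM (3.86-fold lower, FDR 1.58e-04). Syvn1 (HRD1), the ubiquitin ligase of the complex, was at 21.6, 20.9 and 23.7 FPKM against 68.6, 68.3 and 39.6 FPKM (2.67-fold lower, FDR 0.00170). In both, Ctrl mouse 3 was the lowest of its group and still above all OEx mice. Selenos, a selenoprotein that links derlins to the p97 ATPase, was at 74.1, 67.1 and 85.3 FPKM against 196, 194 and 188 FPKM (2.55-fold lower, FDR 8.85e-05). Sel1l, the partner of HRD1, and Edem1, a relative of Edem2, fell by 0.74 and 0.68 on the log2 scale (FDR 0.0188 and 0.0101).

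The sensors differed from one another. Atf6 was at 9.63, 9.51 and 17.8 FPKM in OEx mice and 30.7, 31.1 and 22.4 FPKM in Ctrl mice, 2.28-fold lower (log2 fold change -1.17, SE 0.25, FDR 0.00620). Its relative Atf6b was at 25.3, 27.2 and 32.3 FPKM against 70.1, 67.2 and 47.6 FPKM, 2.18-fold lower (FDR 0.00147). In both genes mouse 3 of each group lay toward the other group without crossing it, and Atf6b lost its call without Ctrl mouse 1 (-0.98). Eif2ak3 (PERK) was at 8.52, 8.34 and 10.8 FPKM against 14.4, 15.4 and 9.01 FPKM, where Ctrl mouse 3 lay among the OEx mice (log2 fold change -0.42, 95% CI -0.92 to 0.07, FDR 0.110). Without Ctrl mouse 3 the value was -0.65 (FDR 0.00600). Exons of Eif2ak3 share 485 bases with a transcript on the opposite strand.

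Ern1 (IRE1) was the gene of the list with the highest log2 fold change, at 37.1, 39.0 and 47.1 FPKM in OEx mice and 37.4, 35.5 and 18.1 FPKM in Ctrl mice. Ctrl mice 1 and 2 lay near the OEx mice and Ctrl mouse 3 was low, and the difference missed the threshold (0.49, 95% CI -0.17 to 1.14, FDR 0.158). Without Ctrl mouse 3 the value was 0.16 (FDR 0.259). Ern2, the IRE1 paralogue of mucosal epithelia, was below the filter, with read counts of 0, 1 and 0 in the OEx group and of 6, 3 and 7 in the Ctrl group, and was not tested.

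Among the transcription factors, Atf4, the effector of PERK and of the other eIF2alpha kinases, stood apart, at 47.7, 43.2 and 46.1 FPKM in OEx mice and 207, 208 and 205 FPKM in Ctrl mice. Both groups were tight, and mouse 3 did not stand apart in either. The mean was 4.53-fold lower (log2 fold change -2.16, SE 0.08, FDR 1.69e-05). Atf4 lies on chromosome 15 from 80255184 to 80257541. Ddit3 (CHOP), which acts downstream of ATF4, was at 7.20, 6.97 and 6.79 FPKM against 20.5, 21.1 and 26.0 FPKM, 3.22-fold lower (FDR 6.26e-05). A second row with the symbol Ddit3 was listed at 0 in all mice, and exons of Ddit3 overlap those of its neighbour Mars.

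Xbp1, the factor whose mRNA IRE1 splices, differed less than Atf4 and Ddit3, at 88.9, 86.7 and 85.6 FPKM against 126, 123 and 99.7 FPKM. It fell by 0.41 on the log2 scale (FDR 0.0150) with no overlap, and was higher by 0.49 with library totals (FDR 0.0267). Gene-level values do not tell spliced from unspliced mRNA. The Creb3-like factors are membrane-bound relatives of ATF6, and Creb3l1 and Creb3l4 were at low levels. Creb3l1 stood at 1.77, 1.88 and 0.489 FPKM in OEx mice and 6.39, 4.93 and 2.76 FPKM in Ctrl mice (log2 fold change -1.26, FDR 0.0152), a call that was lost without OEx mouse 3 (-0.95) and without Ctrl mouse 1 (-1.05, FDR 0.0504). Creb3l4, known from prostate, stood at 1.07, 1.28 and 1.02 FPKM against 4.43, 4.60 and 2.78 FPKM (-1.20, FDR 0.00101). Creb3l2, with means of 15.5 and 19.8 FPKM, had overlapping groups and a log2 fold change of -0.32 (FDR 0.0988).

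The feedback genes of the PERK branch followed Atf4 and Ddit3 in direction. Trib3, a pseudokinase induced by ATF4 and CHOP that restrains them, was at 1.25, 1.48 and 0.678 FPKM in OEx mice and 8.50, 10.1 and 8.64 FPKM in Ctrl mice, 7.99-fold lower (log2 fold change -2.25, SE 0.17, FDR 7.13e-05). Ppp1r15a (GADD34), the inducible subunit of the phosphatase that resets eIF2alpha, was at 7.15, 6.94 and 7.32 FPKM against 21.6, 21.2 and 27.9 FPKM, 3.30-fold lower (-1.58, SE 0.12, FDR 7.80e-05). Its constitutive counterpart Ppp1r15b, the most abundant of the 3, was at 16.1, 15.5 and 16.0 FPKM against 21.9, 23.6 and 15.8 FPKM. Ctrl mouse 3 lay among the OEx mice for Ppp1r15b (log2 fold change -0.32, FDR 0.0947, and -0.49 with FDR 0.00171 without that mouse), which shares 640 exon bases with a transcript on the opposite strand.

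**Figure D3:**
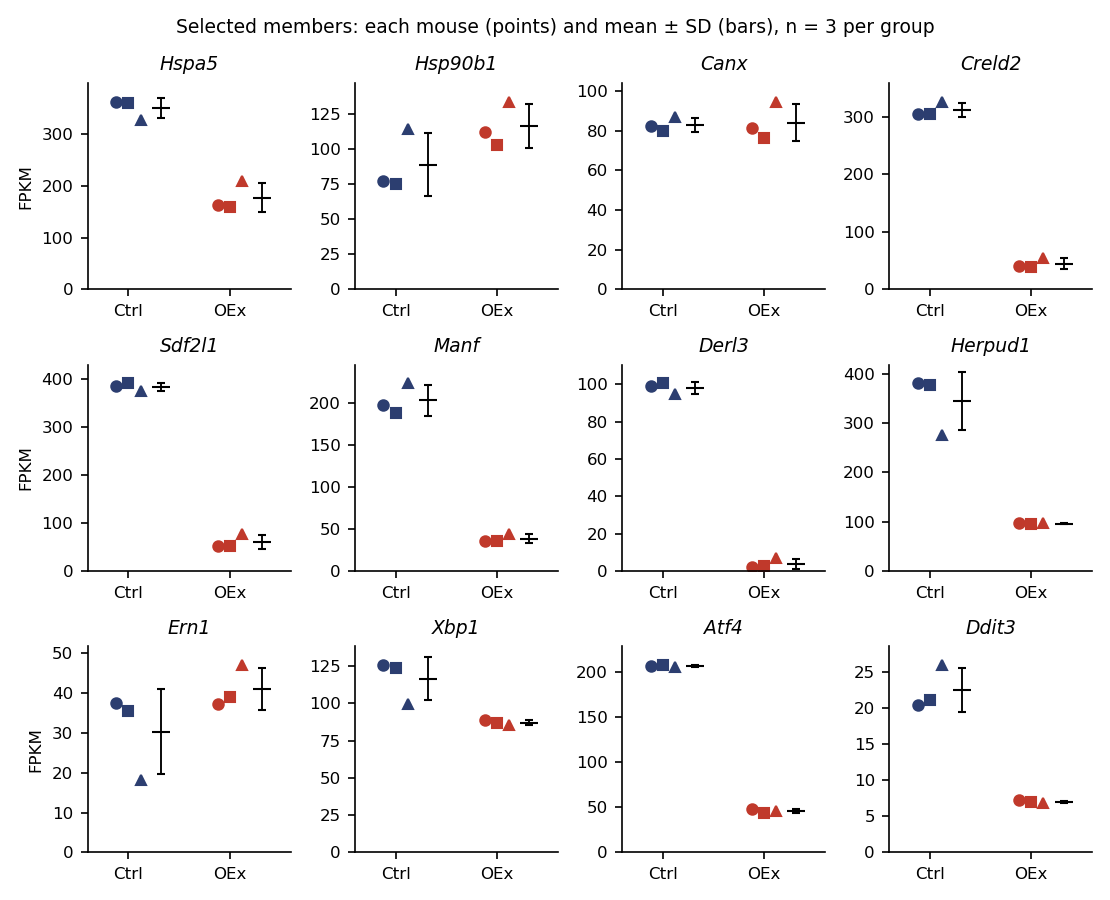
Levels in FPKM of 12 genes in each mouse (circle, square and triangle for mice 1, 2 and 3, with Ctrl to the left of OEx in each panel), with the mean and SD of the 3 mice of a group as bars, and axes that start at 0. The groups stand far apart for Creld2, Sdf2l1, Manf, Derl3, Herpud1, Atf4 and Ddit3, less so for Hspa5 and Xbp1, and overlap for Hsp90b1, Canx and Ern1.

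Ratios between genes of the same mouse do not depend on the scaling between mice, and the following pairs were picked after the values were seen. Hspa5 to Hsp90b1 was 1.46, 1.55 and 1.56 in OEx mice and 4.70, 4.80 and 2.86 in Ctrl mice. Derl3 to Derl1 was 0.0637, 0.0743 and 0.182 against 1.25, 1.29 and 1.26. Both ratios were lower in every OEx mouse, so the balance within the Hsp70 and Hsp90 pair and within the derlins differed. Creld2 to Canx was 0.495, 0.520 and 0.585 in OEx mice and 3.72, 3.83 and 3.77 in Ctrl mice. Atf4 to Xbp1 was 0.536, 0.498 and 0.539 against 1.64, 1.69 and 2.06, so that Atf4 was above Xbp1 in all Ctrl mice and below it in all OEx mice. In the order of mean levels among the 41 genes, P4hb held rank 1 in both groups, Derl3 went from rank 16 in Ctrl mice to 36 in OEx mice, Sdf2l1 from 4 to 12, Hsp90b1 from 17 to 6 and Ern1 from 28 to 16. Where ranks lie next to each other the spreads of the mice often overlap, and single places carry no weight.

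How the values were scaled between mice sets how many of these genes were called. In Ctrl mice the most abundant gene took 14.2% to 22.0% of the reads, against at most 1.12% in OEx mice, and the deposited FPKM values carry a scaling that offsets this. With each mouse scaled to its FPKM total instead, the median log2 fold change of all tested rows was 0.65, 3.93% of rows were called lower and 34.7% higher. By that rule 7 ER genes were called lower, namely Creld2, Sdf2l1, Manf, Derl3, Edem2, Atf4 and Trib3, and 2 higher, namely Hsp90b1 (1.30) and Ern1 (1.36). The median of the 41 genes was then -0.20, which is 0.86 below the median of all rows, against 1.01 below it with the deposited scaling. The same 7 lower genes were called in each of the 17 alternatives that were run. As a share of each mouse's FPKM total, the 42 genes made up 0.996%, 0.974% and 1.16% in OEx mice and 1.31%, 1.30% and 1.05% in Ctrl mice, so that by this measure the groups overlapped.

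**Figure D4:**
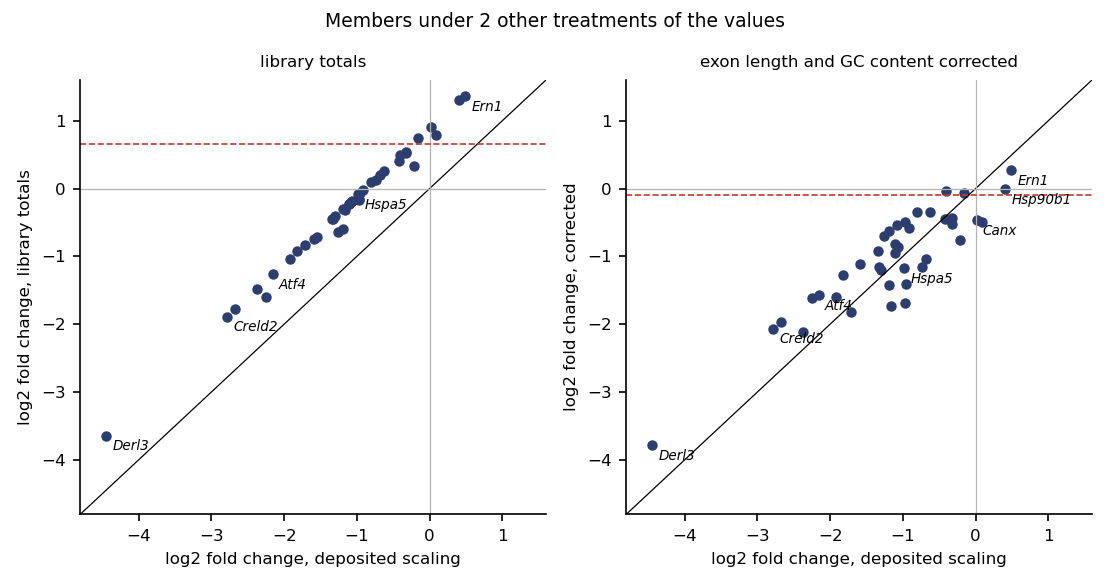
Log2 fold changes of the tested genes with the deposited scaling (x axis) against those with library totals (left) and after removal of trends with exon length and GC content (right), 1 point per gene, with equal values on the black line and the median of all rows as a red dashed line. Library totals shift all genes upward, with smaller shifts for genes at low levels. The corrected values move Canx and Hsp90b1 down and leave Derl3, Creld2 and Atf4 well below 0.

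Base composition moved with some of the differences. The GC content of the longest transcript ran from 41.6% to 51.2%, with a median of 46.9%, in the 9 genes that did not pass the FDR, and from 40.6% to 60.3%, with a median of 51.7%, in the 32 that did. Canx, Hsp90b1 and Ero1l, at 42.2%, 42.1% and 41.6%, were the 3 genes whose sign turned with the correction. After trends with exon length and GC content were removed within each mouse, their log2 fold changes were -0.47 for Canx (FDR 0.00470), -0.50 for Ero1l (FDR 0.00269) and -0.01 for Hsp90b1 (FDR 0.956). In that fit 19 of 40 genes were called lower and none higher, with 7 calls lost (Dnajb11, Txndc5, Atf6b, Creb3l1, Creb3l4, Derl1 and Selenos) and 5 gained (Hspa5, Dnajc3, Edem1, Derl2 and Sel1l). Dnajb9, with a GC content of 40.6%, was called lower with and without the correction. OEx mouse 3 was the highest of its group for 30 of 41 genes, and Ctrl mouse 3 the lowest of its group for 29 of 41. This was not counted over all rows. Mouse 3 of each group stood apart across the whole data set, with a chi-square per gene of 62.2 to 108 to mice 1 and 2. The part of OEx mouse 3 and Ctrl mouse 3 in the size of each difference was not tested beyond leaving them out. This gave 25 genes called lower without OEx mouse 3 and 25 without Ctrl mouse 3.

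The wider pathway was read from 6 lists of 124 other genes, of which 115 were tested, 42 were called lower and 4 higher. Over all tested rows, 15.7% were called lower and 12.9% higher. The median log2 fold change of the 115 genes was -0.63. ATF4 and CHOP targets had the highest share of calls among the 6 lists, 16 of 24 lower with a median of -1.63, and none was called higher, although 1 passed the FDR in that direction without the fold criterion. Chac1, which degrades glutathione and is a sharp reporter of ATF4, was at 1.50, 1.71 and 1.32 FPKM in OEx mice and 68.0, 66.9 and 67.2 FPKM in Ctrl mice (log2 fold change -4.77, FDR 7.33e-06). Asns, asparagine synthetase, was at 7.55, 7.24 and 8.08 FPKM against 157, 157 and 101 FPKM (-3.99, FDR 2.46e-05). Psat1, an enzyme of serine synthesis, had a log2 fold change of -3.37 (FDR 4.52e-05). With library totals, 10 of the 24 targets were called lower and 1 higher, and the ATF4 element TGATGNAA was found in 9 of their 23 promoter windows (39.1%).

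Among other ER folding factors 11 of 24 were called lower and none higher, with 2 past the FDR in the higher direction. Fkbp11, a proline isomerase of secretory cells, was at 5.28, 4.82 and 5.18 FPKM in OEx mice and 111, 110 and 82.9 FPKM in Ctrl mice (log2 fold change -4.06, FDR 1.52e-05). Sil1, a nucleotide exchange factor of BiP, and Sdf2, the relative of Sdf2l1, had log2 fold changes of -2.05 and -1.85. Of 12 other disulfide and redox proteins, 4 were called lower and 1 higher (1 lower and 3 higher with library totals). Agr2, a PDI-like protein of mucous and glandular cells, was at 11.9, 10.1 and 29.5 FPKM against 763, 757 and 731 FPKM (-5.52, FDR 5.03e-05), a larger difference than that of any of the 42 genes. Erp29 had a log2 fold change of -1.51. Tmx3, a membrane-bound isomerase, was the 1 gene of this list called higher with the deposited scaling. Its levels were 11.4, 10.1 and 11.9 FPKM in OEx mice and 3.17, 2.58 and 3.67 FPKM in Ctrl mice (1.56, FDR 9.39e-05).

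Other ERAD genes were called less often than the 9 described above, with 2 of 20 lower, among them the ubiquitin-conjugating enzyme Ube2g2 (-1.28), a difference between lists that was not tested. None was called higher, with 4 past the FDR in that direction. Among other UPR regulators 5 of 17 were called lower and 1 higher (2 lower and 3 higher with library totals). Bhlha15 (Mist1), a factor that builds up the secretory apparatus and a target of XBP1, was at 10.5, 11.3 and 9.86 FPKM in OEx mice and 94.3, 94.5 and 85.6 FPKM in Ctrl mice (log2 fold change -3.00, FDR 1.42e-05). Sec61b, a subunit of the translocon, and Wfs1, an ER membrane protein, had log2 fold changes of -2.30 and -1.63, and the gene called higher was Eif2ak2 (1.43), named after its value was seen.

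Chaperones outside the ER did not share this direction as a group. Of 18 cytosolic and mitochondrial heat shock genes, 4 were called lower and 2 higher, near the shares of all rows (15.7% and 12.9%), and their median of -0.09 on the log2 scale was close to that of all rows. With library totals, 0 of these were called lower and 6 higher, where 3.93% of all rows were called lower and 34.7% higher. The share called higher was thus near that of all rows. The near-identical Hspa1a and Hspa1b, whose reads could be split between the copies, had log2 fold changes of -1.90 and -1.58, with Ctrl mouse 3 far above the other mice and values of -1.23 and -1.10 without it, and the cochaperone Bag3 had -1.42. Hsp90aa1, the inducible cytosolic Hsp90, was at 52.4, 48.0 and 54.2 FPKM in OEx mice and 19.7, 18.9 and 31.0 FPKM in Ctrl mice (1.15, FDR 0.00175), and Dnajb4 was the other gene called higher (1.35). These last 2 genes were named after their values were seen.

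**Figure D5:**
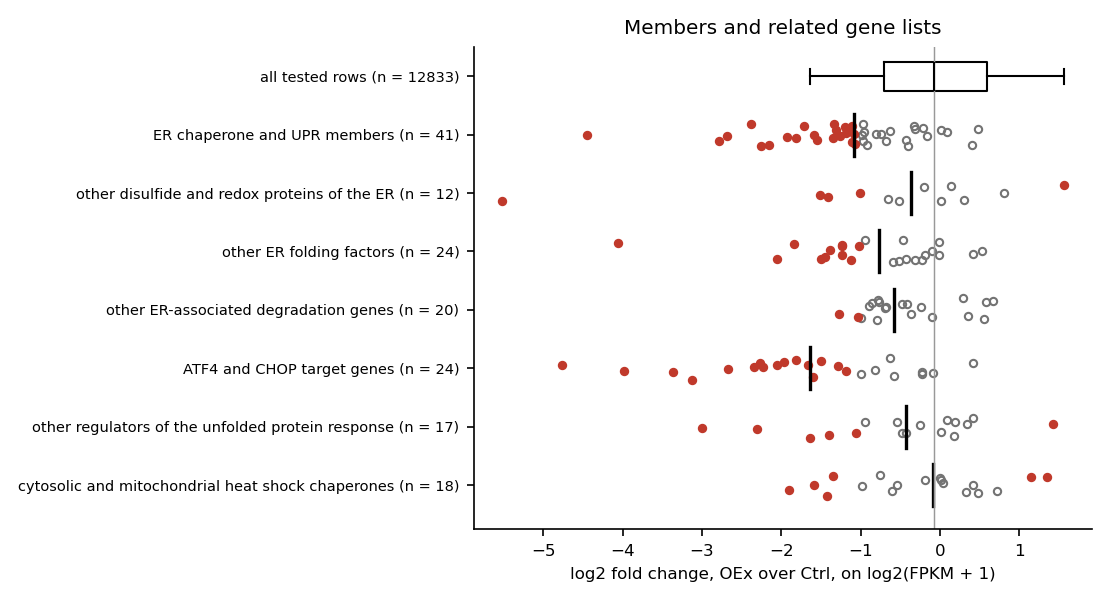
Log2 fold changes, OEx over Ctrl, of the 41 tested ER and UPR genes and of the 6 related lists, 1 point per gene (filled red, called; open grey, not called; black bar, median), under a box of all 12833 tested rows (quartiles and median, whiskers from the 5th to the 95th percentile). The described genes and the ATF4 and CHOP targets have medians of -1.08 and -1.63, and the heat shock chaperones outside the ER have -0.09.

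Markers of the cell types differed between the groups to unlike degrees. Luminal markers, the check of the labelled tissue, were present in every mouse, with summed levels of 3158 to 6219 FPKM in OEx and 16639 to 20460 FPKM in Ctrl mice over 6 genes. Pbsn alone made up 56.8% to 90.0% of these sums, and the other 5 genes summed to 1364 to 1722 FPKM in OEx and 2053 to 2459 FPKM in Ctrl mice. Of the 6, Pbsn and Krt18 were called lower, and Epcam and Cdh1 were not. All 4 basal markers were called lower, with summed levels of 6.79, 7.05 and 15.9 FPKM in OEx mice and 218, 212 and 249 FPKM in Ctrl mice. Summed smooth muscle and fibroblast markers were 307 to 555 FPKM against 822 to 1698 FPKM, with 3 of 7 called lower and 2 above 0 on the log2 scale. Endothelial markers were 4.99 to 6.05 FPKM against 10.8 to 14.6 FPKM, with none of 3 called. Markers of plasma cells, which are rich in these same ER genes, summed to 36.8 to 102 FPKM in OEx and 44.9 to 52.9 FPKM in Ctrl mice over 9 genes. Only 4 of the 9 were tested, all 4 with a log2 fold change above 0 and none called. Tnfrsf17 was at 0 in all Ctrl mice and at most 0.272 FPKM in OEx mice. Leukocyte markers summed to 4.36 to 19.1 FPKM against 4.41 to 10.2 FPKM over 6 genes, with none of the 2 tested called. The part of these shifts in cell makeup in the levels of the ER genes was not tested.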

How the data were processed

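RNA of whole AP from 3 OEx and 3 Ctrl mice was sequenced with TruSeq libraries, taken as 1 per mouse because the labels list them so. The authors deposited 1 table of FPKM values per mouse, by gene symbol. The submitters' processing notes name CASAVA, HISAT2 2.0.5, featureCounts 1.5.0-p3 and StringTie 1.3.3b, and the genome build and strand setting are not given in the sources used here. Gene positions and exon lengths came from the GENCODE annotation of GRCm38, matched by symbol for 53710 of 55076 rows, and promoter windows from RefSeq GRCm38.p6. Reads were recovered as FPKM times exon length in whole steps within 0.05 reads, which held for 96.9% to 97.5% of values that stood for fewer than 1000 reads. Recovered reads gave the depth, the floor of 3 reads and an alternative fit, and such floors cover counting error only.

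The groups were compared on log2(FPKM + 1), a scale that understates changes of low genes, by limma (version 3.58.1, R version 4.3.3) with group as the only term and an intensity trend. The fit held the 12833 rows that averaged 1 FPKM or more. Calls needed a Benjamini-Hochberg FDR under 0.05 over all tested rows and more than a 2-fold difference, as in the paper. An exact two-sided permutation test over the 20 assignments of 3 of 6 mice cannot give a p below 0.1, and gave 0.1 for each gene whose groups did not overlap. The 42 genes and the related and marker lists were chosen with earlier results of these data known. Per-mouse values are given for called genes, for the most abundant gene of each role, for sensors and main factors and for genes under the filter, and from each related list at most 3 called genes with the largest changes, at a mean of 5 FPKM or more, are named. Eif2ak2, Hsp90aa1 and Dnajb4 fall outside that rule and were named after their values were seen. Scripts were tested on simulated data. Alternatives covered scaling between mice, pseudocount, filter, fold criterion, limma-voom, a correction for exon length and GC content (lowess span 0.3), a replicate block and each mouse left out. Python 3.11.15 was used with pandas 2.3.3 and numpy 2.4.6 for tables, scipy 1.17.1 for tests and matplotlib 3.10.9 for figures.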

Additional observations from a re-analysis of the deposited data

How the results depend on the processing

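The scaling between mice had the largest effect among the alternatives. With library totals, 7 of the ER genes were called lower, 2 higher and 21 passed the FDR. Of the 21, Hsp90b1, Ern1, Canx (0.91), Ero1l (0.79), Pdia3, Xbp1, Creb3l2 and Ppp1r15b were higher in OEx mice, and the rest were lower. Of the 115 tested related genes 15 were called lower and 19 higher, against 3.93% and 34.7% of all rows. Without the 20 most abundant rows in those totals, 9 ER genes were lower and 2 higher, and 20 related genes were lower and 13 higher. Of all 12833 rows, 717 were then lower and 3477 higher. With upper-quartile scaling 13 ER genes and 1197 of the 12833 rows were lower. The related genes called higher were 2 with a filter at 5 FPKM and 2 after the correction for exon length and GC content. Under library totals the sign turned for Pdia3 (0.74), Pdia4 (0.26), P4hb (0.097), Ero1lb (0.33), Eif2ak3 (0.40), Xbp1 (0.49), Creb3l2 (0.53), Ppp1r15b (0.53), Edem1 (0.20) and Sel1l (0.13). Without the 20 most abundant rows it turned for Pdia3 (0.49), Pdia4 (0.020), Ero1lb (0.18), Eif2ak3 (0.18), Xbp1 (0.25), Creb3l2 (0.30) and Ppp1r15b (0.30), and with upper-quartile scaling for Pdia3 (0.18), Creb3l2 (0.0067) and Ppp1r15b (0.0032). These shifts follow from the scaling itself, which moved the median of all rows to 0.65, 0.45 and 0.21. The correction turned Hsp90b1 (-0.013), Canx (-0.47) and Ero1l (-0.50), and Canx, which ran from -0.074 to 0.080 with 1 mouse left out, also turned without OEx replicate 3 (-0.074) and without Ctrl replicate 2 (-0.014). None of these genes was called with the deposited scaling.

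With 1 mouse left out, 20 to 25 ER genes were lower and 28 to 36 passed the FDR, and of the related genes 38 to 46 were lower and 4 higher. Of the 22 called genes, 20 were called in all 6 of these fits, the exceptions being Atf6b and Creb3l1. Same-numbered mice share only a number, their deviations correlated at -0.23 against 0.095 for other pairs, and no mouse correlated best with its own number. With the replicate number as a block, 22 ER genes were lower, 31 passed the FDR, and 41 related genes were lower and 4 higher. With mice 1 and 2 of each group averaged, an alternative chosen after seeing the data, 19 were lower and 26 passed the FDR, without Atf6, Atf6b and Creb3l1.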

Other observations

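A few values of the described genes belong to no comparison above. Across the 3 Ctrl mice, Atf4 varied least among the factors relative to its mean (206.8 ± 1.45 FPKM, SD, n = 3), while Ern1 was at 30.3 ± 10.6 FPKM and Syvn1 at 58.8 ± 16.7 FPKM, with Ctrl mouse 3 the lowest in both. Across the 3 OEx mice, Herpud1 (96.1 ± 1.26 FPKM) and Ppp1r15a (7.14 ± 0.191 FPKM) were even, while Pdia6 (277 ± 80.5 FPKM) and Pdia4 (104.2 ± 34.0 FPKM) spread widely with OEx mouse 3 the highest. With only 3 mice in a group, no sample was tested as an outlier.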
